A study of Homo sapiens with 6 samples.

Results

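The SLC25 genes encode the mitochondrial carrier family, and 48 of the 58735 genes measured in MUM2B cells carry a symbol of the form SLC25A followed by a number. Members were taken by that symbol alone, which leaves out pseudogenes, antisense genes and the related carriers named UCP and MTCH. The data were RNA-seq libraries of the human line MUM2B, which the labels call melanoma, in 2 groups of 3 libraries: cells with stable overexpression of LACTB, a mitochondrial serine protease-like protein of the space between the membranes that forms filaments, and cells stably carrying an empty vector (EV). All cells grew in serum-containing RPMI medium with no other treatment. Nothing in the labels tells whether replicates came from separate cultures, or whether a stable line was 1 clone or a pool. The p-values therefore reflect the spread between libraries alone, and that spread may be technical.

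SLC25 proteins sit, with few exceptions, in the inner mitochondrial membrane and exchange metabolites, nucleotides, cofactors and ions between the cytosol and the matrix. Each is built from tandem repeats of a pair of membrane-spanning helices around a central binding site, and the transporter opens to one side at a time. The family links glycolysis, the citric acid cycle, fatty acid synthesis and oxidation, amino acid metabolism, heme synthesis and ATP export. The comparison asks which of these transport steps differ in RNA level when LACTB is raised.

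LACTB itself had 174, 169 and 161 FPKM in the LACTB libraries, against 3.81, 3.39 and 4.71 FPKM in the EV libraries, so all 6 libraries matched their labels. FPKM are fragment counts scaled to exon length and an effective library size. That size was 0.983 (EV replicate 1) to 1.02 (LACTB replicate 3) times the reads in genes. The libraries held 16978799 to 18395631 reads in genes, and 3 reads in a gene with 2 kb of exons were worth 0.0827 to 0.0872 FPKM. Mitochondrially encoded genes took 4.65% to 5.04% of the reads in the LACTB libraries and 3.61% to 5.62% in the EV libraries, with EV replicate 3 the lowest. Of 12 melanocyte markers, 11 lay under 1 FPKM and 2 of these were listed at 0, so these defining markers of melanocytes were largely absent. The remaining marker was RAB38, a melanosome trafficking gene. The other marker lists held 5 genes each: 5 leukocyte and 5 fibroblast markers lay under 1 FPKM, as did 3 epithelial and 4 endothelial ones. The keratin genes KRT8 and KRT18 averaged 164 ± 2.32 and 144 ± 2.10 FPKM with LACTB, against 185 ± 1.999 and 162 ± 5.16 FPKM with EV (SD, n = 3 each). CDH5, the vascular endothelial cadherin, averaged 14.0 ± 0.453 FPKM with LACTB and 49.8 ± 2.56 FPKM with EV. Their part in the results on the carriers was not tested. In bulk libraries such as these, fewer cells of one kind and less RNA per cell cannot be told apart.

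Of the 48 members, 34 reached a mean of 1 FPKM over the 6 libraries and were tested, 10 lay lower but above 0, and 4 were listed at 0 in every library. Among the tested members 6 rose and 5 fell with LACTB at an adjusted p under 0.05, which is 32.4% of them. Across all 11875 tested genes the share called was 32.0%, with 14.8% rising and 17.2% falling, so the carriers were called about as often as genes in general. Their median log2 fold change was 0.02 (-0.01 over all tested genes), and their median absolute log2 fold change was 0.12 (0.14 over all tested genes). Calls rest on limma with log2(FPKM + 1) values, Benjamini-Hochberg adjusted over all tested genes, and a log2 fold change is LACTB minus EV on that scale, which understates the change of low genes. The genes that rose were SLC25A20, SLC25A14, SLC25A22, SLC25A15, SLC25A38 and SLC25A25. Those that fell were SLC25A1, SLC25A23, SLC25A13, SLC25A4 and SLC25A24. The groups did not overlap for 15 tested members (8 with LACTB above and 7 with LACTB below), and for 47.4% of all tested genes.

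**Figure D1:**
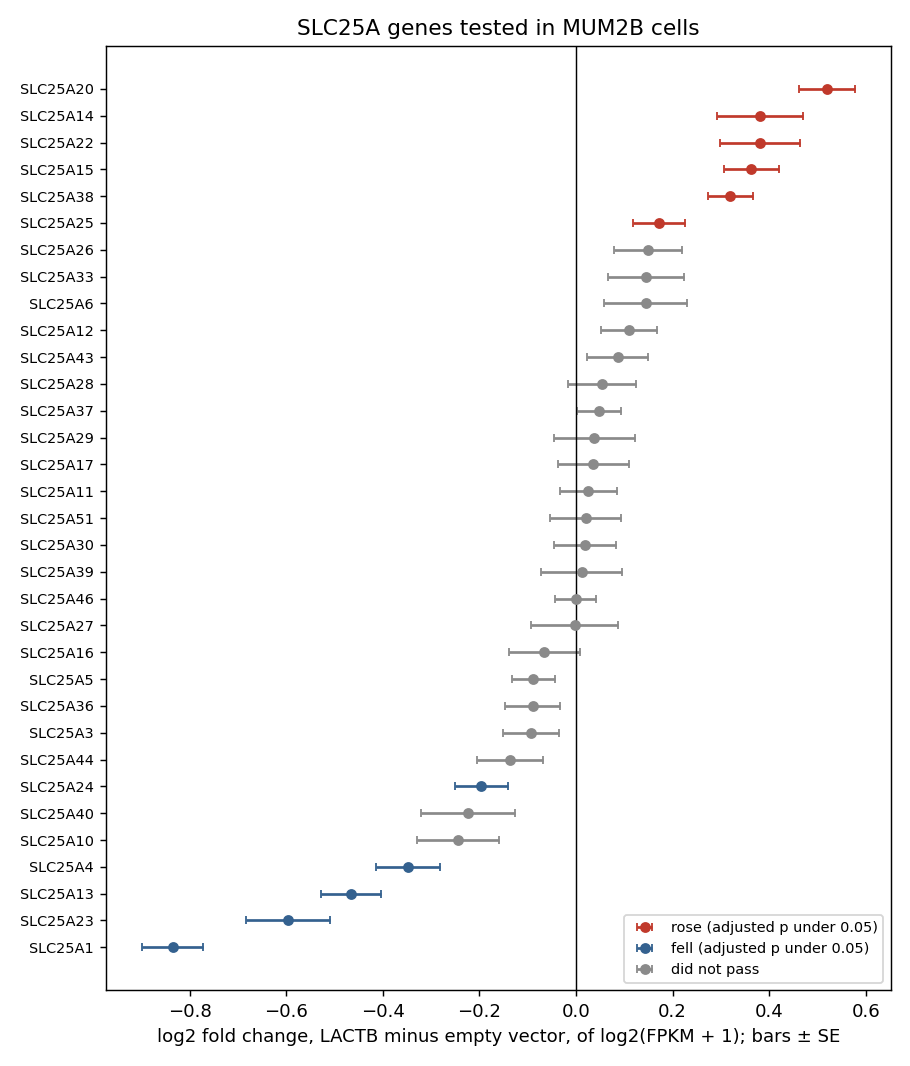
Log2 fold changes of tested SLC25A genes on the log2(FPKM + 1) scale (x axis, LACTB minus EV, bars ± SE), ordered by size down the page, with genes that rose in red, genes that fell in blue and the rest in grey. SLC25A20 has the largest rise at 0.52 and SLC25A1 the largest fall at -0.84, and the grey genes lie within 0.24 of 0.

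The promoters of SLC25A1, SLC25A13, SLC25A15, SLC25A20 and SLC25A38 are shown because these 5 members were called under each of the 15 alternative fits. The letters are the 250 bases before the RefSeq start site (build GRCh38.p14), written 5′ to 3′ along the gene, at chr22:19178737-19178986 on the minus strand, chr7:96322099-96322348 on the minus strand, chr13:40789361-40789610 on the plus strand, chr3:48898883-48899132 on the minus strand and chr3:39383120-39383369 on the plus strand. Capitals mark matches to TGACNNNGC, the antioxidant response element bound by NRF2, on either strand.
SLC25A1: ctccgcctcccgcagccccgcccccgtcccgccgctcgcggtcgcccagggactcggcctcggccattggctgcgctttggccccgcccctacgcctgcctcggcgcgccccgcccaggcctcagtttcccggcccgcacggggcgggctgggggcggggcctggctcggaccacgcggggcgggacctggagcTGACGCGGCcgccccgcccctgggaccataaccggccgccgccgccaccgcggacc
SLC25A13: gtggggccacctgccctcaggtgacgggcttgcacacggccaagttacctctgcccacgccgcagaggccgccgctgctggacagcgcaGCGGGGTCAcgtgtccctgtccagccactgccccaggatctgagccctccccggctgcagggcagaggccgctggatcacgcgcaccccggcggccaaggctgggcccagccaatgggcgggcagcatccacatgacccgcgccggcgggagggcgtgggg
SLC25A15: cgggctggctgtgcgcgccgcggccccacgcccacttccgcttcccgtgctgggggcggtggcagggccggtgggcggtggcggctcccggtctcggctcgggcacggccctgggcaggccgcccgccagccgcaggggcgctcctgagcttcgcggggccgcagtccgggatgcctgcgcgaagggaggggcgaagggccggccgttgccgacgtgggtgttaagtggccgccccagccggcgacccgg
SLC25A20: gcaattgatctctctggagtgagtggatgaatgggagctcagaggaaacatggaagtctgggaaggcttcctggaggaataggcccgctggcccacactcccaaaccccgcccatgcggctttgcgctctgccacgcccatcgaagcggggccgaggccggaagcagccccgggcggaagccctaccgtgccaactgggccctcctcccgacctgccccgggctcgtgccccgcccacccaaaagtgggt
SLC25A38: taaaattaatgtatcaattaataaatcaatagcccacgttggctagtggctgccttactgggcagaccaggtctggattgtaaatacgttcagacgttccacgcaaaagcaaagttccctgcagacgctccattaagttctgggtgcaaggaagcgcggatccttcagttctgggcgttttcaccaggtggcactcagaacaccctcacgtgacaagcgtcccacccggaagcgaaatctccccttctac

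Windows of 300 bases (250 before to 50 after the start) were found for 40 of the 48 members, 50 windows in all, and were searched on both strands. In 44 of these 50 windows, bases just after the start were found in a GENCODE 29 transcript of the gene, among them the windows of the 5 genes printed above. The other 6, which include the window of SLC25A23 and 1 of the windows of SLC25A24, held none of the motifs searched, and whether they are the promoters in use was not tested. TGACNNNGC matched in 9 of the 50 member windows and in 13.4% of 34683 human promoter windows of the same length. Among the called members it was present in the genes that fell, SLC25A1, SLC25A13 and SLC25A24, and in the genes that rose, SLC25A22 and SLC25A25. Matches lay in only 1 of the 4 windows of SLC25A22, 1 of the 3 of SLC25A25 and 1 of the 2 of SLC25A24. It was also present in SLC25A5, SLC25A39 and SLC25A46, which did not pass, and in SLC25A45, which was not tested. TCACNCCAC, a sterol regulatory element, was found in 1.12% of all windows and in the window of 1 member, SLC25A40, which did not pass the test. TGATGNAA, the core of the element bound by ATF4 with C/EBP factors, was found in 3.63% of all windows and in that of SLC25A11, which also did not pass. The site of the nuclear respiratory factor NRF1, GCGCA and GCGC with 1 base between them, was found in 5.76% of all windows and in 5 member windows, none of them of a called gene. TNAAGGTCA, an element of estrogen-related receptors, was found in 0.951% of all windows and in none of the members. No 2 matches overlapped, and a match describes these letters only.

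The levels of the family spanned a wide range and were led by the ADP/ATP and phosphate carriers. SLC25A5, SLC25A6 and SLC25A3 together held 64.6% of the family's summed FPKM. The whole family summed to 650.4, 698 and 691 FPKM in the LACTB libraries and to 707, 688 and 691 FPKM in the EV libraries, so the summed levels overlapped. Without those 3 genes the sums were 236, 243 and 241 FPKM with LACTB and 248.5, 245 and 247 FPKM with EV, all 3 LACTB sums lying below the EV sums. Those sums averaged 240 FPKM with LACTB and 247 FPKM with EV. SLC25A1 alone averaged 14.1 FPKM with LACTB and 25.9 FPKM with EV, a wider gap, so the lower sums do not describe the other members. At the other end, SLC25A31, the germ cell ADP/ATP carrier, SLC25A2, an ornithine carrier, SLC25A41, an ATP-Mg/phosphate carrier, and SLC25A48 were listed at 0 in all libraries.

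**Figure D2:**
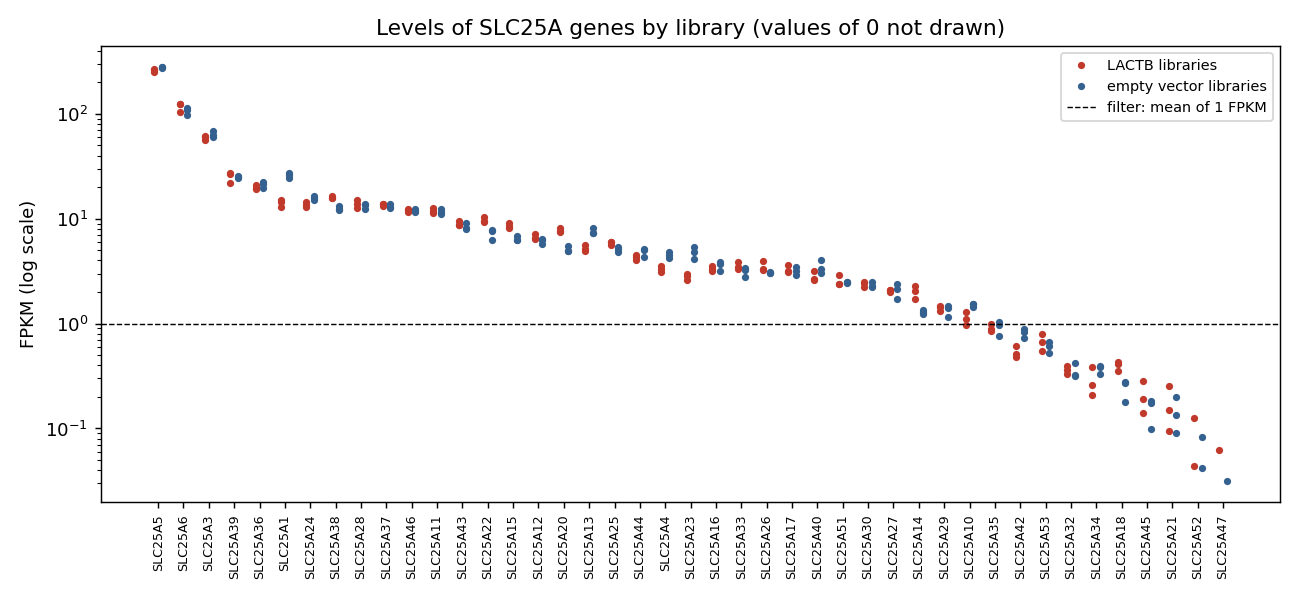
FPKM (log scale) of SLC25A genes with a value above 0, ordered by their mean over the 6 libraries, with LACTB libraries in red at left and EV libraries in blue at right of each position. SLC25A5 stands highest at 253 to 282 FPKM, and 10 genes lie under the dashed line of 1 FPKM that set which genes were tested.

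Among the carriers of di- and tricarboxylates, SLC25A1 had the largest change of the family. It encodes the citrate carrier, which moves citrate out of the matrix in exchange for malate and so supplies acetyl-CoA for lipid synthesis in the cytosol. SLC25A1 (ENSG00000100075, GRCh38 chromosome 22, 19175575 to 19178830, minus strand) stood at 12.9, 14.3 and 14.96 FPKM in the LACTB libraries, against 27.1, 26.1 and 24.5 FPKM in the EV libraries. Every LACTB library lay far below every EV library, on 491 to 564 against 925 to 998 reads. It fell 1.84-fold (log2 fold change -0.84, SE 0.063; limma, adjusted p = 0.000162). ACLY, the enzyme that splits the exported citrate and named after its values were seen, averaged 67.3 ± 1.29 FPKM with LACTB and 80.6 ± 2.73 FPKM with EV and also fell (log2 fold change -0.26; limma, adjusted p = 0.00416).

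The other dicarboxylate carriers did not pass the test or were too low for it. SLC25A11, which exchanges malate for 2-oxoglutarate in the malate-aspartate shuttle, averaged 11.9 ± 0.623 FPKM with LACTB and 11.7 ± 0.719 FPKM with EV (SD, n = 3 each). RNF167 on the opposite strand, at a mean of 15.7 FPKM, covers 9.14% of the exon bases of SLC25A11. SLC25A10, which exchanges malate or succinate for phosphate, stood at 0.969, 1.11 and 1.29 FPKM with LACTB and 1.45, 1.53 and 1.55 FPKM with EV, on 46 to 73 reads a library. Its groups did not overlap, and it came closest to the threshold among the members not called (log2 fold change -0.24; limma, adjusted p = 0.0663). A protein-coding gene on the same strand, AC139530.2, with a mean of 0 FPKM, covers 46.6% of its exon bases, so the level of SLC25A10 is uncertain. SLC25A21, a carrier of oxoadipate and related acids, and SLC25A34 and SLC25A35, whose substrates are not settled, lay under 1 FPKM and were not tested.

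The aspartate/glutamate carriers are the step of the malate-aspartate shuttle that sends aspartate out of the matrix and are activated by calcium on the cytosolic side. SLC25A13, also known as citrin (ENSG00000004864, chromosome 7, 96120220 to 96322147, minus strand), stood at 4.90, 5.61 and 5.19 FPKM in the LACTB libraries, against 7.34, 7.37 and 8.11 FPKM in the EV libraries. It fell 1.45-fold without overlap (log2 fold change -0.47, SE 0.062; limma, adjusted p = 0.0018). Its paralogue SLC25A12, also known as aralar, stood at 7.11, 6.55 and 6.46 FPKM with LACTB and at 6.31, 5.74 and 6.40 FPKM with EV. Here the LACTB libraries lay slightly above the EV libraries, the difference did not pass (log2 fold change 0.11, SE 0.058; limma, adjusted p = 0.197), and 3.50% of the exon bases overlap METAP1D on the opposite strand.

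As a share of the summed FPKM of both genes, SLC25A12 made up 59.2%, 53.9% and 55.5% in the LACTB libraries and 46.2%, 43.8% and 44.1% in the EV libraries. By FPKM it was therefore the more abundant paralogue in all 3 LACTB libraries, and SLC25A13 was in all 3 EV libraries. That order in the EV libraries depends on the exon lengths used, 5169 bases for SLC25A12 and 3710 for SLC25A13. By recovered reads SLC25A12 was higher in every library, with 574, 538 and 596 against 479, 496 and 542 reads in the EV libraries. The mean share was 56.2 ± 2.72% with LACTB and 44.7 ± 1.34% with EV (SD, n = 3 each). With 3 libraries against 3 an exact two-sided permutation test cannot give a p under 0.1, so the shares are given as descriptions. The aminotransferases of the same shuttle went in opposite directions. GOT2, the matrix enzyme, averaged 62.1 ± 0.38 FPKM with LACTB and 76.1 ± 3.30 FPKM with EV and fell (log2 fold change -0.29; limma, adjusted p = 0.00305), whereas GOT1, the cytosolic enzyme and named after its values were seen, averaged 19.96 ± 0.712 FPKM with LACTB and 14.4 ± 0.614 FPKM with EV and rose (log2 fold change 0.44; limma, adjusted p = 0.000745). MDH1, the cytosolic malate dehydrogenase and also named after its values were seen, averaged 24.4 ± 0.503 FPKM with LACTB and 30.3 ± 1.71 FPKM with EV. It fell (limma, log2 fold change -0.30, adjusted p = 0.00422). MDH2, the matrix malate dehydrogenase, averaged 24.4 ± 0.474 FPKM with LACTB and 22.0 ± 1.85 FPKM with EV. MDH2 did not pass (limma, log2 fold change 0.15, adjusted p = 0.110).

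**Figure D3:**
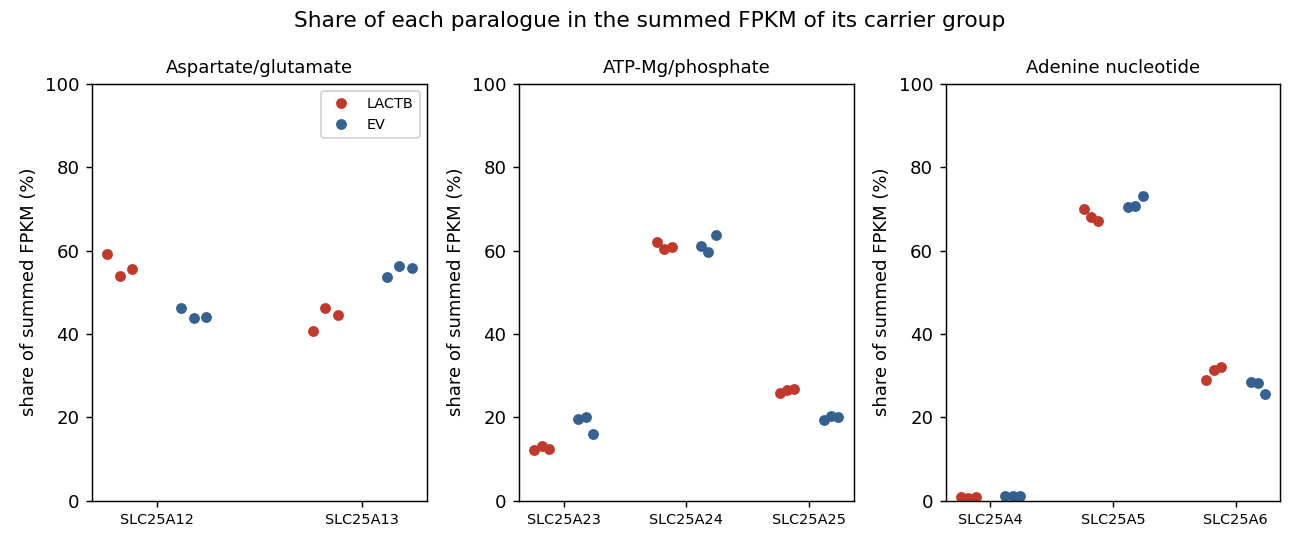
Share of each paralogue in the summed FPKM of its carrier group (y axis, percent; 1 point per library, LACTB in red at left and EV in blue at right of each gene). SLC25A12 holds 53.9% to 59.2% with LACTB and 43.8% to 46.2% with EV, and SLC25A25 holds 25.7% to 26.8% with LACTB and 19.4% to 20.3% with EV.

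Glutamate import by proton symport is carried by SLC25A22 and SLC25A18. SLC25A22 (ENSG00000177542, chromosome 11, 790475 to 798333, minus strand) stood at 9.26, 9.52 and 10.4 FPKM in the LACTB libraries, against 7.89, 7.59 and 6.32 FPKM in the EV libraries. All LACTB libraries were higher, and EV replicate 3 was the lowest of its group. It rose 1.34-fold (log2 fold change 0.38, SE 0.083; limma, adjusted p = 0.0133). SLC25A18 was scarce, at 0.431, 0.356 and 0.41 FPKM with LACTB and 0.18, 0.279 and 0.269 FPKM with EV, on 29 to 37 against 15 to 24 reads. Its libraries did not overlap either, but it lay under the level for testing. SLC25A22 made up 96.1 ± 0.445% of the summed FPKM of both genes with LACTB and 96.7 ± 0.956% with EV.

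Carriers of other amino acids included a pair that rose. SLC25A15 (ENSG00000102743, chromosome 13, 40789412 to 40810111, plus strand) exchanges ornithine for citrulline in the urea cycle and also supplies matrix ornithine elsewhere. Its values were 9.20, 8.48 and 8.17 FPKM in the LACTB libraries, against 6.81, 6.30 and 6.31 FPKM in the EV libraries, from 268 to 306 and 209 to 220 reads. SLC25A15 rose 1.33-fold with no overlap (log2 fold change 0.36, SE 0.056; limma, adjusted p = 0.00359). SLC25A38 (ENSG00000144659, chromosome 3, 39383324 to 39397351, plus strand) brings glycine into the matrix for the first step of heme synthesis. It stood at 15.8, 16.5 and 15.6 FPKM with LACTB and at 12.2, 12.4 and 13.3 FPKM with EV, with every LACTB library above every EV library. The rise was 1.27-fold (log2 fold change 0.32, SE 0.047; limma, adjusted p = 0.00293).

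ALAS1, which joins that glycine to succinyl-CoA and was named after its values were seen, averaged 37.4 ± 0.688 FPKM with LACTB and 30.3 ± 0.979 FPKM with EV and rose as well (log2 fold change 0.30; limma, adjusted p = 0.00203). FECH, another enzyme of heme synthesis, averaged 3.70 ± 0.366 FPKM with LACTB and 3.46 ± 0.273 FPKM with EV and did not pass (limma, adjusted p = 0.492). SLC25A44, a carrier of branched-chain amino acids, averaged 4.28 ± 0.241 FPKM with LACTB and 4.81 ± 0.41 FPKM with EV and did not pass (limma, adjusted p = 0.175). SLC25A29, a carrier of basic amino acids, averaged 1.41 ± 0.0817 and 1.35 ± 0.162 FPKM in LACTB and EV libraries, which overlapped.

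SLC25A20 had the largest log2 fold change among the members that rose (ENSG00000178537, chromosome 3, 48856931 to 48898993, minus strand). It encodes the carnitine/acylcarnitine carrier, which brings long-chain acyl groups into the matrix for oxidation. Its values were 8.22, 7.57 and 7.46 FPKM in the LACTB libraries, against 4.93, 4.92 and 5.46 FPKM in the EV libraries, from 258 to 295 and 172 to 195 reads. The gene rose 1.52-fold without overlap (log2 fold change 0.52, SE 0.058; limma, adjusted p = 0.000892). Only SLC25A14 rose slightly more as a ratio of mean FPKM, 1.54-fold, from far fewer reads. CPT1A, which makes the acylcarnitines that SLC25A20 carries, stood at 7.88, 9.39 and 8.32 FPKM with LACTB and 6.19, 6.35 and 6.73 FPKM with EV and rose 1.33-fold (log2 fold change 0.36; limma, adjusted p = 0.00737).

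The ATP-Mg/phosphate carriers adjust the adenine nucleotide content of the matrix and respond to calcium. All 3 tested members passed the threshold, in different directions, where 32.0% of all tested genes were called. The calls of SLC25A24 and SLC25A25 were lost in 8 and 11 of 15 alternative fits. SLC25A23 (ENSG00000125648, chromosome 19, 6436079 to 6465203, minus strand) stood at 2.82, 2.97 and 2.63 FPKM in the LACTB libraries, against 4.83, 5.36 and 4.12 FPKM in the EV libraries. It fell 1.70-fold without overlap (log2 fold change -0.60, SE 0.087; limma, adjusted p = 0.00268), and the EV libraries varied more than the LACTB libraries. SLC25A24 (ENSG00000085491, chromosome 1, 108134036 to 108200849, minus strand), the most abundant of the group, stood at 14.5, 13.6 and 12.8 FPKM with LACTB and 15.1, 15.8 and 16.4 FPKM with EV. It fell 1.155-fold (log2 fold change -0.20, SE 0.055; limma, adjusted p = 0.0327), a call that was lost without EV replicate 2 (adjusted p = 0.0838), EV replicate 3 (0.0795), LACTB replicate 2 (0.0944) or LACTB replicate 3 (0.0962), and ran from 0.0247 to 0.165 over its alternatives.

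SLC25A25 (ENSG00000148339, chromosome 9, 128068201 to 128109245, plus strand) stood at 5.997, 6.02 and 5.68 FPKM in the LACTB libraries and at 4.79, 5.40 and 5.18 FPKM in the EV libraries. Its rise of 1.151-fold was the smallest of the calls (log2 fold change 0.17, SE 0.055; limma, adjusted p = 0.0494). It was lost when any 1 of the 6 libraries was left out, with limma's adjusted p at 0.137, 0.0531 and 0.0814 without EV replicates 1 to 3 and at 0.119, 0.147 and 0.0726 without LACTB replicates 1 to 3. Over all its alternatives the adjusted p ran from 0.0242 to 0.147. The antisense gene SLC25A25-AS1 shares 13.5% of the exon bases of SLC25A25, and whether reads were counted by strand is not given in the sources used here. SLC25A25-AS1 stood at 1.253, 1.38 and 1.64 FPKM with LACTB and 0.792, 0.836 and 0.625 FPKM with EV and rose (limma, adjusted p = 0.0116). Its part in the value of SLC25A25 was not tested. Within the group, SLC25A23 made up 12.6 ± 0.515% of the summed FPKM with LACTB and 18.6 ± 2.22% with EV, and SLC25A25 26.4 ± 0.571% with LACTB and 19.95 ± 0.499% with EV (SD, n = 3 each). SLC25A24 held 61.1 ± 0.974% and 61.5 ± 2.15% in LACTB and EV libraries.

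The ADP/ATP carriers export the ATP made in the matrix, and among them the least abundant expressed paralogue fell. SLC25A4 (ENSG00000151729, chromosome 4, 185143241 to 185150382, plus strand), the isoform that is typical of heart and muscle, stood at 3.56, 3.10 and 3.35 FPKM in the LACTB libraries, against 4.54, 4.198 and 4.81 FPKM in the EV libraries. It fell 1.35-fold without overlap (log2 fold change -0.35, SE 0.066; limma, adjusted p = 0.00776). SLC25A5, the isoform typical of dividing cells, stood at 253, 271 and 263 FPKM with LACTB and 282, 274 and 279 FPKM with EV. All LACTB libraries lay below the EV libraries by a small margin, and the difference did not pass (log2 fold change -0.09, SE 0.044; limma, adjusted p = 0.172). SLC25A6, a widely expressed isoform, stood at 105, 125 and 126 FPKM with LACTB and 114, 109 and 97.7 FPKM with EV, which overlapped (log2 fold change 0.14; limma, adjusted p = 0.248). With voom on recovered reads its adjusted p was 0.0422, and over its alternatives the adjusted p ran from that value to 0.507.

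SLC25A5 held 68.3 ± 1.49% of the summed FPKM of the ADP/ATP carriers with LACTB and 71.5 ± 1.43% with EV, SLC25A6 30.8 ± 1.57% with LACTB and 27.4 ± 1.52% with EV, and SLC25A4 0.873 ± 0.105% with LACTB and 1.1597 ± 0.0919% with EV. These shares did not overlap between the groups. SLC25A3, which imports the phosphate for ATP synthesis, averaged 59.4 ± 2.43 FPKM with LACTB and 63.5 ± 4.25 FPKM with EV and did not pass (log2 fold change -0.09; limma, adjusted p = 0.271). SLC25A5, SLC25A6 and SLC25A3 have processed pseudogenes. Of the 40 SLC25A pseudogenes in the files, 29 were listed at 0 in all libraries and the highest mean was 0.119 FPKM. How reads that match several places were treated is not given in the sources used here.

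SLC25A14 (ENSG00000102078, chromosome X, 130339888 to 130373361, plus strand), a member related to the uncoupling proteins, rose. Its values were 2.28, 1.70 and 2.03 FPKM in the LACTB libraries, against 1.247, 1.30 and 1.35 FPKM in the EV libraries, from 88 to 124 and 66 to 73 reads. The LACTB libraries varied more but all lay higher (log2 fold change 0.38, SE 0.089; limma, adjusted p = 0.017). That call was lost without LACTB replicate 1 (adjusted p = 0.051) or LACTB replicate 3 (0.0549), and over all its alternatives the adjusted p ran from 0.00501 to 0.0633. The related SLC25A27 and SLC25A30 averaged 2.06 ± 0.0574 and 2.38 ± 0.128 FPKM with LACTB and 2.08 ± 0.329 and 2.33 ± 0.123 FPKM with EV, with overlap and no call (limma, adjusted p = 0.988 and 0.852).

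**Figure D4:**
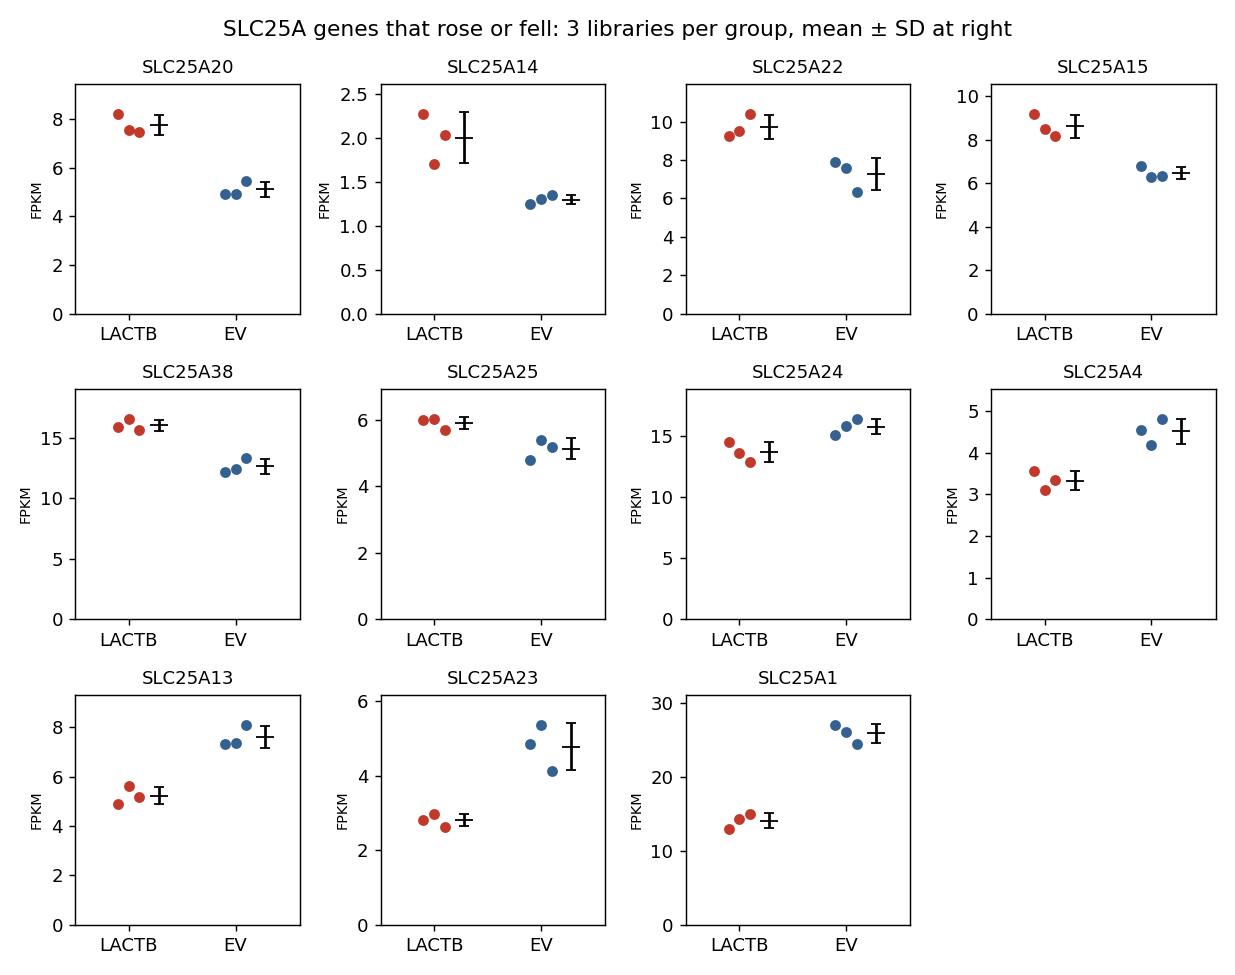
FPKM of the 11 SLC25A genes that rose or fell, 1 point per library (LACTB in red at left, EV in blue at right), with the mean ± SD beside the points (n = 3 each). All axes start at 0, and no panel has overlapping groups; SLC25A1 shows LACTB libraries at 12.9 to 14.96 FPKM and EV libraries at 24.5 to 27.1 FPKM.

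Carriers of cofactors, nucleotides, iron and glutathione gave no calls. In the cofactor and vitamin group, SLC25A16, SLC25A17, SLC25A26 and SLC25A51 had log2 fold changes of -0.07, 0.04, 0.15 and 0.02, with adjusted p from 0.155 (SLC25A26) to 0.863 (SLC25A51) by limma. SLC25A26 imports S-adenosylmethionine and SLC25A51 NAD, and SLC25A17 is a carrier of peroxisomes. LRIG1 on the opposite strand, at a mean of 1.49 FPKM, covers 15.5% of the exon bases of SLC25A26. The pyrimidine nucleotide carriers SLC25A33 and SLC25A36 averaged 3.59 ± 0.285 and 19.8 ± 0.902 FPKM with LACTB and 3.15 ± 0.321 and 21.2 ± 1.27 FPKM with EV, and both pairs of groups overlapped.

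The mitoferrins SLC25A37 and SLC25A28, which bring iron into the matrix for heme and iron-sulfur clusters, stood at almost the same level. SLC25A37 averaged 13.7 ± 0.385 FPKM with LACTB and 13.2 ± 0.541 FPKM with EV, and SLC25A28 13.8 ± 1.19 FPKM with LACTB and 13.3 ± 0.783 FPKM with EV (SD, n = 3 each; limma, adjusted p = 0.462 and 0.599). SLC25A39, the glutathione importer, stood at 21.9, 26.9 and 27.2 FPKM with LACTB and 25.8, 24.3 and 24.9 FPKM with EV, with LACTB replicate 1 the lowest library of all. Its paralogue SLC25A40 averaged 2.81 ± 0.298 FPKM with LACTB and 3.46 ± 0.499 FPKM with EV. Neither passed (limma, adjusted p = 0.932 and 0.124). SLC25A46, an outer membrane protein involved in mitochondrial shape, averaged 12.005 ± 0.336 FPKM with LACTB and 12.013 ± 0.372 FPKM with EV, and SLC25A43 9.03 ± 0.482 FPKM with LACTB and 8.46 ± 0.632 FPKM with EV.

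For the 23 tested members without a call, the size of the log2 fold change had a median of 0.07 and a maximum of 0.24, with SEs of the 34 tested members from 0.043 to 0.097. A miss at this spread does not show that a level was the same. Of the 10 members between 0 and 1 FPKM, SLC25A42, a coenzyme A carrier, and SLC25A18 had groups that did not overlap, as had 12.0% of all genes with a mean in that range (2256 of 18754). SLC25A42 stood at 0.477, 0.617 and 0.517 FPKM with LACTB and 0.893, 0.829 and 0.724 FPKM with EV, on 39 to 48 against 59 to 71 reads. The remaining 8 overlapped. SLC25A32, a folate and FAD carrier, averaged 0.365 ± 0.0326 FPKM with LACTB and 0.356 ± 0.0599 FPKM with EV, on 21 to 28 reads a library. AC012213.5 on the same strand, at a mean of 0.00642 FPKM, covers 69.7% of its exon bases. DCAF13 on the opposite strand, at a mean of 18.2 FPKM, covers 11.1%. The level of SLC25A32 is therefore uncertain. SLC25A52 and SLC25A47 had at most 3 reads in any library.

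Genes that work with the carriers were called at varied rates, set beside the 32.0% of all tested genes. The lists were chosen with earlier results of these data known, so their rates only describe the genes listed. Among related carriers outside the symbol rule, none of 3 tested passed: UCP2 averaged 4.69 ± 0.519 FPKM with LACTB and 5.78 ± 1.01 FPKM with EV, MTCH1 56.1 ± 3.60 FPKM with LACTB and 63.5 ± 2.47 FPKM with EV, and MTCH2 36.3 ± 0.689 FPKM with LACTB and 36.95 ± 1.18 FPKM with EV. Limma's adjusted p was 0.166, 0.0519 and 0.702 for these, their unadjusted p was under 0.05 for 1 gene, and voom on recovered reads called 1. Other transport of mitochondrial membranes gave 3 rises and 5 falls among 21 tested genes, or 38.1%, with a median log2 fold change of -0.07. SLC8B1, the sodium/calcium exchanger of mitochondria, rose to 7.54 ± 0.525 FPKM with LACTB, against 5.91 ± 0.00973 FPKM with EV. The sideroflexins SFXN3 and SFXN1, of which SFXN1 imports serine, fell to 11.9 ± 0.268 and 14.9 ± 0.166 FPKM with LACTB, against 18.5 ± 0.828 and 20.1 ± 0.174 FPKM with EV.

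The proteins that bring carriers to the inner membrane gave 2 rises and 1 fall among 14 tested genes, or 21.4%. The small chaperones TIMM9 and TIMM10B rose to 21.2 ± 0.724 and 6.98 ± 0.801 FPKM with LACTB, against 16.4 ± 0.459 and 4.91 ± 0.291 FPKM with EV. TIMM13, a chaperone of the same kind, fell to 24.1 ± 3.54 FPKM with LACTB, against 31.3 ± 2.44 FPKM with EV (limma, adjusted p = 0.0335), and this call was lost without EV replicate 1 (0.0947), EV replicate 3 (0.0736), LACTB replicate 1 (0.0681) or LACTB replicate 2 (0.0883) and ran from 0.00454 to 0.117 over its alternatives. TIMM22, the channel of that pathway, averaged 8.69 ± 0.645 FPKM with LACTB and 8.39 ± 0.19 FPKM with EV and did not pass.

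Enzymes that make or use what the carriers move gave 12 rises and 9 falls among 32 tested genes, or 65.6%, with a median log2 fold change of 0.04. This list, too, was chosen with earlier results known and holds ACLY, GOT1, MDH1 and ALAS1, so the rate is a description only. PCK2, which makes phosphoenolpyruvate in the matrix, rose 3.45-fold to 19.4 ± 1.27 FPKM with LACTB, against 5.61 ± 0.411 FPKM with EV (limma, adjusted p = 1.08e-05). The folate enzyme MTHFD2 rose 1.92-fold to 58.4 ± 1.22 FPKM with LACTB, against 30.5 ± 1.18 FPKM with EV. ME3, a mitochondrial malic enzyme, fell 1.42-fold to 7.19 ± 0.331 FPKM with LACTB, against 10.2 ± 0.306 FPKM with EV.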

How the data were processed

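Total RNA of 6 MUM2B libraries was extracted with Trizol, made into NEBNext libraries and read as 150 bp pairs on a NovaSeq, per the labels' protocols. The authors deposited FPKM values, 1 file per library; the submitters' processing notes name GRCh38 (hg38), featureCounts 1.5.0-p3, HISAT2 2.0.5 and DESeq2 1.16.1, with no role or order. All 58735 gene IDs matched GENCODE 29 (GRCh38), which gave coordinates and exon lengths. Multiplied by exon length, 100% of the FPKM values came to whole reads within 0.1 reads, which gave the reads behind each value.

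Genes averaging 1 FPKM or more were tested on log2(FPKM + 1) with limma 3.58.1 in R 4.3.3 (eBayes with trend, two-sided) on all 6 libraries, with no block. Libraries of one group differed beyond sampling noise (chi-square per degree of freedom 2.02 to 12.4). Pairs with EV replicate 3 were the highest, at 12 and 12.4. EV replicates 1 and 2 gave 3.07, and pairs of LACTB libraries gave 2.02 to 4.87. Members and lists were chosen with earlier results of these data known. By rule, values are given for the called members, the 6 most abundant and paralogues of called members. Beyond that rule, values of many other members are given within their role groups, and the rest are accounted for by counts and ranges. The values of 1 member, which was not called, are not reported here, and it is kept in the counts. Alternatives were a pseudocount of 0.1, other filters, TPM, median-of-ratios or quantile scaling, no trend, voom on recovered reads, a replicate block, an adjusted p under 0.01, and leaving out each library. The median-of-ratios factor was 1.005 for all 6 libraries, so that alternative nearly repeats the fit on the deposited values. Promoters came from RefSeq (GRCh38.p14).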

Additional observations from a re-analysis of the deposited data

How the results depend on the processing

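SLC25A1, SLC25A13, SLC25A15, SLC25A20 and SLC25A38 kept their calls under all 15 alternative fits. SLC25A4 and SLC25A23 kept theirs under all 14 alternative fits in which they were tested (limma, adjusted p at most 0.0347 and 0.0154). The number of members that rose was 3 without a filter and 3 at an adjusted p under 0.01, and the number that fell was 3 at a mean of at least 5 FPKM, a setting under which SLC25A4, SLC25A14 and SLC25A23 were not tested; leaving out single libraries gave 4 to 5 rises and 4 to 5 falls. Over all genes, 847 rose and 1004 fell at an adjusted p under 0.01, 1155 rose at a mean of at least 5 FPKM, 1295 fell as TPM, and leaving out single libraries gave 1115 (without LACTB replicate 2) to 1505 rises and 1388 to 1800 falls.

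With the replicate number as a block, 1155 genes rose and 1324 fell, with 5 and 4 among the members. Same-numbered libraries did not visibly deviate together (r = -0.126, 0.0194 and -0.0438, against -0.0601 to 0.109 for libraries of different number). Neither these values nor the labels exclude that same-numbered libraries were handled together. SLC25A24 and SLC25A25 lost their calls under the block (limma, adjusted p = 0.1 and 0.112), as TPM (0.165 and 0.105), with quantile normalization (0.0512 and 0.0575) and without a filter (0.082 and 0.111), SLC25A25 also without the trend (0.0539). Without a filter SLC25A22 (0.0531) and SLC25A14 (0.0633) lost theirs. SLC25A10 was called with quantile normalization (0.0464) and without the trend (0.0307).

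Among related carriers outside the symbol rule, 1 fell at a mean of at least 5 FPKM, 1 with voom and 0 to 2 with single libraries left out (2 without EV replicate 3). Of the import genes 2 fell at a mean of at least 5 FPKM, 2 with voom, 0 in the other fits that differed (adjusted p under 0.01, no filter, TPM, block), and 0 to 2 with single libraries left out. The smallest differences changed sign, all without a call. With single libraries left out the log2 fold changes ran from -0.0412 to 0.111 (SLC25A39), -0.00555 to 0.11 (SLC25A28), -0.0207 to 0.0204 (SLC25A46), -0.0114 to 0.0691 (SLC25A11), -0.0164 to 0.0821 (SLC25A17), -0.0485 to 0.055 (SLC25A51), -0.00292 to 0.0498 (SLC25A30), -0.0871 to 0.0678 (SLC25A27) and -0.0203 to 0.0729 (SLC25A29). They were 0.0225 as TPM, 0.0205 with quantile normalization and 0.0332 with voom for SLC25A46, 0.0195 as TPM and 0.0364 with voom for SLC25A27, and -0.00123 and -0.000515 with quantile normalization for SLC25A30 and SLC25A29. By recovered reads in place of FPKM, the share of SLC25A4 differed by -0.826 percentage points in place of -0.29, and that of SLC25A25 by 5.28 in place of 6.44. Reads, unlike FPKM, are not divided by exon length, so a share by reads gives more weight to longer genes. Exon bases were 4844 for SLC25A4, against 1500 for SLC25A5 and 2164 for SLC25A6. They were 4936 for SLC25A25, against 4859 for SLC25A23 and 6733 for SLC25A24. The counts behind SLC25A14, SLC25A10 and the members under 1 FPKM limit what could be seen there.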
